A study of Homo sapiens with 96 samples.

Results

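Hederagenin and oleanolic acid are plant triterpenes of the oleanane type that share 1 ring skeleton and a carboxylic acid, and hederagenin carries a further hydroxyl group that oleanolic acid lacks. The 18 libraries of the pair were chosen by the compound named in the sample labels, out of 96 in a study that exposed A549 cells, an established human lung adenocarcinoma line, to extracts and 8 ingredients of Paeoniae Radix and sequenced their RNA. Each compound was given at 10, 2 and 0.4 µM, with 3 libraries at each dose. The groups described are therefore A549 with hederagenin at 10, 2 or 0.4 µM, A549 with oleanolic acid at 10, 2 or 0.4 µM, and the 3 vehicle libraries of the second of 2 experimental batches, to which all 18 belong. The labels name no genetic change in any of these 21 libraries, and neither the vehicle nor the exposure time is given in the sources used here. Nothing in the labels ties replicates to separate cultures, so the spread behind each p-value is that of these libraries and may be a technical one.

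Oleanane triterpenes are lipophilic acids, related in their synthesis to sterols, and have been studied for effects on bile acid receptors, on the NRF2 oxidative stress response and on lipid metabolism. A group of genes described below belongs to the integrated stress response. In that pathway, kinases that sense amino acid shortage, misfolded protein or mitochondrial trouble slow translation and let the transcription factor ATF4 accumulate, and ATF4 then turns on genes for amino acid synthesis and uptake together with the regulators ATF3, DDIT3 (CHOP), TRIB3, CHAC1 and SESN2.

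Library totals ran from 18.9 to 29.6 M counts, and values are given below as counts-per-million (CPM) of the scaled library total. The identity of the cells as A549 is taken from the study. The keratin KRT18 (2490 to 5400 CPM), the mucin MUC5AC (200 to 573 CPM) and ALDH1A1 (5690 to 6920 CPM) were well expressed. The lung markers SFTPA1 and NKX2-1 were at 0 in 18 and 14 of the 21 libraries. The medians of SFTPB, SFTPC, SFTPD and AQP5 were at most 0.0727 CPM, and those of NAPSA, MUC1 and EPCAM were 0.581, 2.99 and 6.3 CPM. These markers alone do not set a lung identity. Summed fibroblast markers ranged from 45.6 to 93.5 CPM and summed blood and endothelial markers from 8.03 to 17.5 CPM. Among the fibroblast markers COL1A1 (30 to 68.8 CPM), COL3A1 (7.43 to 16 CPM) and THY1 (5.8 to 10.3 CPM) were found in every library. COL1A2, DCN and POSTN never exceeded 0.847 CPM. Among the blood and endothelial markers CD14 (2.3 to 6.53 CPM) and CD68 (1.36 to 12.3 CPM) were found in every library, and CD3E was at 0 in all 21. The libraries differed most in the share of counts from mitochondrially encoded genes. It was 14.5% to 14.9% with vehicle, but 3.44%, 2.29% and 17.8% in replicates 1, 2 and 3 of 0.4 µM hederagenin. At 10 µM it was 9.89%, 9.78% and 3.78% with hederagenin and 13.4%, 12.3% and 4.11% with oleanolic acid. At 2 µM it ran from 7.16% to 14.5% with hederagenin and from 11.8% to 15.7% with oleanolic acid. The 4 libraries with the lowest share had the 4 highest values of the first principal component, which held 33.1% of the variance, so 2 of the 3 libraries of 0.4 µM hederagenin and 1 library of each compound at 10 µM stood apart from the rest. The part of this difference between libraries in the results below was not tested beyond the alternatives given beside them.

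**Figure D1:**
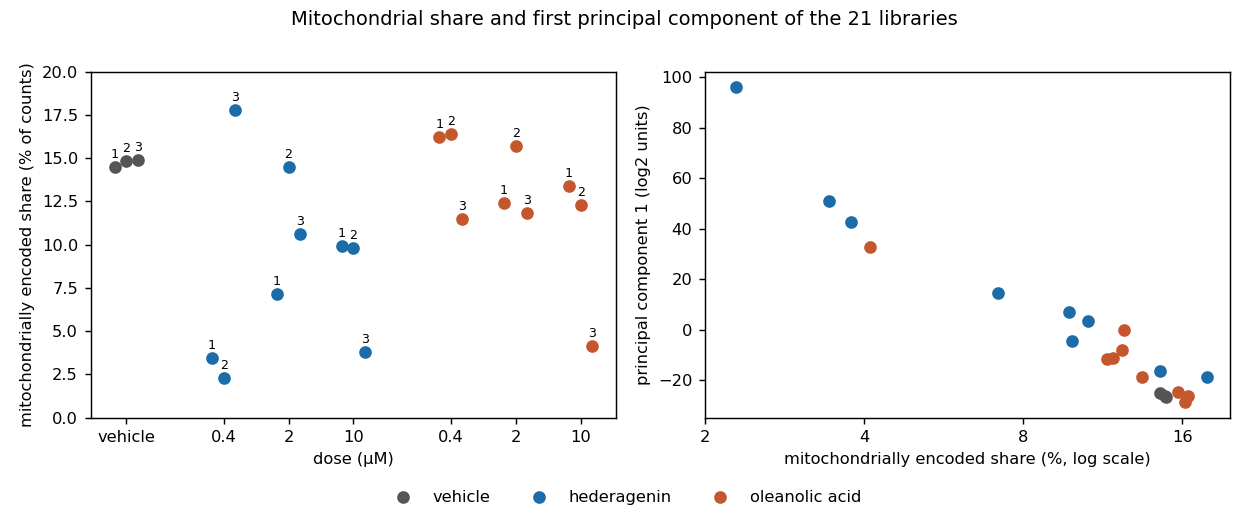
Left, share of counts from mitochondrially encoded genes (percent, y axis) in each library by compound and dose in µM, the number above a point being its replicate. Right, the same share (log scale) against the first principal component of log2 CPM. Replicates 1 and 2 of 0.4 µM hederagenin (3.44% and 2.29%) and replicate 3 of each compound at 10 µM (3.78% and 4.11%) lie at the upper left of the right panel.

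At 10 µM both compounds moved A549 expression away from vehicle. Genes of the ATF4 response rose with each (20 of 27 with hederagenin and 21 with oleanolic acid), while cholesterol genes (11 and 10 of 25), mitotic genes (11 and 21 of 40) and cytosolic chaperones (4 and 13 of 17) fell, beside 2.66% and 3.63% of all genes that fell and 3.72% and 4.21% that rose. Of 17156 genes tested, 1095 (6.38%) passed an adjusted p of 0.05 with hederagenin, 639 of them higher and 456 lower, and 1344 (7.83%) passed with oleanolic acid, 722 higher and 622 lower. These comparisons share the 3 vehicle libraries. Leaving out 1 library of the groups compared gave 320 (without vehicle replicate 1) to 1175 genes with hederagenin and 658 (without vehicle replicate 1) to 864 with oleanolic acid. Leaving out replicates 1 and 2 of 0.4 µM hederagenin gave 4063 and 4087. At 2 µM, 40 genes (0.233%) passed with hederagenin and 77 (0.449%) with oleanolic acid, and at 0.4 µM 29 (0.169%) passed with oleanolic acid. Without any 1 library of the groups compared these 3 counts were 8 to 13, 19 to 47 and 9 to 15. The 4529 genes (26.4%) that passed with 0.4 µM hederagenin come from the group in which 2 of 3 libraries had a low mitochondrial share. Without replicate 2 the count was 1731, and without replicate 3 it was 8777.

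Set directly against each other at the same dose, the compounds gave no gene that passed in edgeR's quasi-likelihood test, whose p-values were adjusted over all genes and over the 3 dose pairs. The share of genes called was 0% at 10, 2 and 0.4 µM. At 10 µM 1007 genes (5.87%) had an unadjusted p under 0.05, 501 higher and 506 lower with hederagenin. A share of about 0.05 of the genes would have such a p where nothing differs. At 2 µM 601 (3.5%) had it, 231 higher and 370 lower, and at 0.4 µM 5613 (32.7%), 3426 higher and 2187 lower. DESeq2 was run on the same libraries, with its own default filtering before the Benjamini-Hochberg step and the same factor of 3 for the dose pairs. It called 15 genes at 10 µM (8 higher and 7 lower with hederagenin), 4 at 2 µM (all lower) and 1261 at 0.4 µM. The 4 genes at 2 µM were STC2, CHAC1, CBS and ASNS, and the 15 at 10 µM included ATF3, DUSP5, FGB, FGG, HSPH1, CHORDC1 and TOP2A. These genes are described below with the edgeR values.

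ATF3, a stress-induced transcription factor of the ATF family, had the smallest p of all genes at 10 µM. It measured 7.88, 7.62 and 6.95 CPM with vehicle, 10.8, 11 and 9.99 CPM with hederagenin and 17, 16.7 and 15 CPM with oleanolic acid. The 3 oleanolic acid libraries lay above the 3 hederagenin libraries, which lay above vehicle. The difference, hederagenin minus oleanolic acid, was -0.62 ± 0.10 (SE) on the log2 scale, a level 1.53-fold lower with hederagenin, with a 95% interval of -0.82 to -0.41 and an adjusted p of 0.252 (edgeR), which misses the threshold of 0.05. DESeq2 gave an adjusted p of 8.98e-05 for the same difference, and over all alternatives run the difference lay between -0.839 and -0.571. With the mitochondrial share as a covariate in the edgeR fit, 2 genes passed at 10 µM, ATF3 (adjusted p 0.0255) and TRIB3 (adjusted p 0.00131), both lower with hederagenin. Against vehicle ATF3 rose with both, by 0.50 ± 0.10 with hederagenin (adjusted p 0.00665) and by 1.12 ± 0.10 with oleanolic acid (adjusted p 8.31e-07). The call with hederagenin was lost in 2 alternatives, in the fits of all 75 and of 71 libraries of the batch (adjusted p 0.151 and 0.109).

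The same order held for the partner regulators. DDIT3, the pro-apoptotic factor CHOP, measured 6.63, 7.74 and 6.35 CPM with vehicle, 19.8, 17.2 and 20.9 CPM with 10 µM hederagenin and 31.7, 28.4 and 24.8 CPM with 10 µM oleanolic acid, a log2 difference between the compounds of -0.55 ± 0.14. TRIB3, a pseudokinase that ATF4 and CHOP induce and that feeds back on them, measured 57.8, 59.3 and 53.8, then 195, 178 and 235, then 273, 278 and 322 CPM in the same order of groups, a difference of -0.52 ± 0.16. SESN2, which restrains the growth kinase mTORC1 when leucine is short, measured 8.09, 8.59 and 9.98, 22.2, 20.2 and 23 and 33.6, 28.1 and 29.3 CPM, a difference of -0.48 ± 0.11. For these 3 genes no library of one compound overlapped those of the other, each rose against vehicle with both compounds, and none of the 3 differences between compounds passed (adjusted p 1 for each). GDF15, a secreted stress hormone, measured 19.2, 22.1 and 24.6 CPM with hederagenin and 31.2, 31.1 and 30.8 CPM with oleanolic acid. Vehicle measured 24.2, 20.2 and 20.3 CPM. The adjusted p against vehicle was 0.0345 with oleanolic acid and 0.938 with hederagenin, while the difference between the compounds, -0.50 ± 0.15, did not pass (adjusted p 1). The call of GDF15 with oleanolic acid was lost in 8 alternatives. ATF4, whose protein is controlled mainly at translation, overlapped between the compounds, with 368, 439 and 430 CPM for hederagenin and 416, 421 and 441 CPM for oleanolic acid against 232, 224 and 235 CPM for vehicle.

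**Figure D2:**
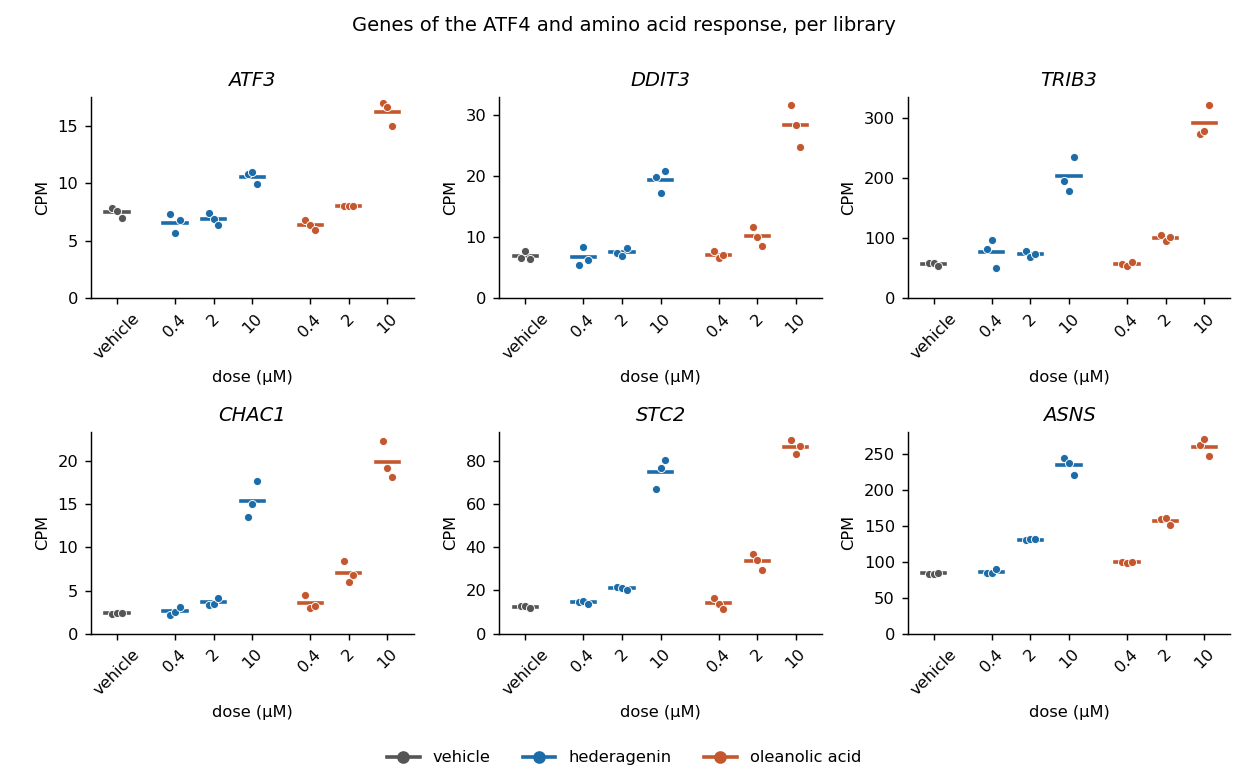
CPM (y axis, from 0) of 6 genes of amino acid and stress response in each library (points) and the group mean (line), by compound and dose in µM. For ATF3, DDIT3, TRIB3, STC2 and ASNS the 3 libraries of 10 µM oleanolic acid lie above the 3 of 10 µM hederagenin, as they do for CHAC1 (13.5 to 17.7 CPM against 18.2 to 22.4 CPM), and both lie above vehicle.

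Promoter windows of 3 of these genes and of the co-chaperone CHORDC1 are shown because their transcripts moved in the 2 directions described here and because the windows hold a match to the element bound in that pathway. Each gives the 250 bases before a RefSeq transcription start (build GRCh38.p14), 5′ to 3′ on the gene's strand, with the match in capitals. The letters searched on both strands were TGATGNAA for the element bound by ATF4 with C/EBP proteins, which CHAC1 holds on the opposite strand, and for the heat shock element TTC, GAA and TTC, each 2 bases apart, whose 3 matches in CHORDC1 overlap.
ASNS, chr7:97872409-97872658, minus strand: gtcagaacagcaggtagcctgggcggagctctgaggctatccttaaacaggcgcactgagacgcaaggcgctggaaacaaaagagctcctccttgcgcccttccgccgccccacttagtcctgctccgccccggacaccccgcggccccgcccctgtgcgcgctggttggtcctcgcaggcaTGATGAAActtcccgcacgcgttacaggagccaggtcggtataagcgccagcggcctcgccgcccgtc
ATF3, chr1:212565157-212565406, plus strand: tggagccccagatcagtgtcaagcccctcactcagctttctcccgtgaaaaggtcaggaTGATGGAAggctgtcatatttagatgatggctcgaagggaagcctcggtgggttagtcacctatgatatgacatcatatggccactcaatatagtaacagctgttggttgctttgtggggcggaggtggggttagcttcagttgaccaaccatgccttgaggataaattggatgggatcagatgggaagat
CHAC1, chr15:40953221-40953470, plus strand: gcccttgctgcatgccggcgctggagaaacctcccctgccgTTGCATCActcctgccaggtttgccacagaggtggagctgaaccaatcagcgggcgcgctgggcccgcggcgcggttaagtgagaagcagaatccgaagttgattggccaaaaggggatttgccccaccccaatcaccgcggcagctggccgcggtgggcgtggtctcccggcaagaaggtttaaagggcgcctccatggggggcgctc
CHORDC1, chr11:90223050-90223299, minus strand: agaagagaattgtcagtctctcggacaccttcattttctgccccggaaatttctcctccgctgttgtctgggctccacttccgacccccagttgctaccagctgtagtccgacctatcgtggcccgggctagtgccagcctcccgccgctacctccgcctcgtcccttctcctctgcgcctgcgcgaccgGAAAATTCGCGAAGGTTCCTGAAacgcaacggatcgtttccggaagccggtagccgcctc
In ASNS the match begins 68 bases before the start, in ATF3 191 bases and in CHAC1 209 bases. ATF3 has a second RefSeq start farther downstream whose window holds none. Of the 28 genes of the ATF4 list 22 had a window in the RefSeq table, and 5 (22.7%) held TGATGNAA, namely ASNS, ATF3, CHAC1, FGF21 and SLC1A5, beside 1061 of all 27305 genes (3.89%). TRIB3, DDIT3 and SESN2 had a window without it. The heat shock element was found in 5 of the 16 listed chaperone genes with a window (31.2%) and in 152 of all genes (0.557%). A match is a description of the letters and not a measured binding site.

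Across the ATF4 list, which also holds genes of amino acid synthesis and uptake, 27 of 28 members passed the filter on low counts (FGF21 did not). Against vehicle at 10 µM, 20 of the 27 rose with hederagenin and none fell, with a median log2 difference of 0.96, and 21 rose and 1 fell (CTH, -0.43 ± 0.12, adjusted p 0.0395, a call lost in 9 alternatives) with oleanolic acid, with a median of 1.1. Among all genes tested 3.72% rose with hederagenin and 4.21% with oleanolic acid. Between the compounds, 24 of the 27 values were lower with hederagenin at 10 µM (48.7% of all genes), 10 at an unadjusted p under 0.05 (2.95% of all genes), and in 12 the libraries did not overlap (5.47% of all genes); 0 were higher at that p. The median difference was -0.18, beside 0.0048 over all genes tested. It was -0.19, with 9 genes lower, when replicate 3 of both compounds, the libraries with the lowest mitochondrial share at that dose, were left out. The 3 values that were not lower with hederagenin belonged to NUPR1 (0.13 ± 0.26), a small stress-induced chromatin protein, to CTH (0.11 ± 0.12), which makes cysteine, and to SLC7A11 (0.03 ± 0.12), the cystine importer, which neither compound moved against vehicle (0.04 ± 0.12 and 0.01 ± 0.12).

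Enzymes of amino acid supply also rose with both compounds. ASNS, asparagine synthetase and a standard readout of the pathway, measured 83.4, 83.1 and 84.8 CPM with vehicle, 244, 238 and 221 CPM with 10 µM hederagenin and 262, 271 and 247 CPM with 10 µM oleanolic acid. The increase was 2.8-fold and 3.1-fold (adjusted p 5.73e-11 and 6.55e-12), and the compounds differed by -0.15 ± 0.06 log2. PSAT1 and PHGDH, enzymes of serine synthesis, rose by 1.08 ± 0.09 and 1.48 ± 0.16 with hederagenin and by 1.23 ± 0.09 and 1.58 ± 0.16 with oleanolic acid. STC2, a secreted glycoprotein, and CHAC1, which degrades glutathione, had the largest increases of the list with both compounds. STC2 went from 12.6, 12.7 and 11.9 CPM with vehicle to 67, 77 and 80.3 CPM with hederagenin and 89.6, 83.2 and 87 CPM with oleanolic acid. CHAC1 went from 2.31, 2.43 and 2.34 CPM to 13.5, 15.1 and 17.7 and 22.4, 19.2 and 18.2 CPM. CBS, which condenses serine with homocysteine and was not on the list, measured 25.1, 23 and 24.9, 56.3, 53 and 50.7 and 69.9, 69.3 and 70.6 CPM, a difference between the compounds of -0.39 ± 0.13.

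At 2 µM the 3 genes of smallest p were STC2, CHAC1 and CBS, each further apart between the compounds in value than at 10 µM, a change with dose that was not tested. STC2 measured 21.7, 21.2 and 20.4 CPM with hederagenin and 37, 34.3 and 29.6 CPM with oleanolic acid, a difference of -0.67 ± 0.11 log2 with an interval of -0.90 to -0.45. CHAC1 measured 3.36, 3.43 and 4.11 CPM against 8.4, 6 and 6.76 CPM, a difference of -0.95 ± 0.17 with an interval of -1.30 to -0.61. CBS measured 31.4, 19.8 and 29.1 CPM against 43.8, 45.5 and 44.3 CPM, a difference of -0.73 ± 0.13. No library of one compound overlapped the other in these 3 genes, yet none passed (adjusted p 0.333, 0.344 and 0.344 by edgeR, and 8.27e-05, 0.00338 and 0.00123 by DESeq2). ASNS, at 130, 131 and 131 CPM against 159, 161 and 151 CPM, differed by -0.27 ± 0.06 (adjusted p 1 by edgeR and 0.00515 by DESeq2). With the mitochondrial share as a covariate 4 genes passed at 2 µM by edgeR, namely TRIB3, PHGDH, CBS and STC2, all lower with hederagenin. Of the 27 list genes 25 were lower in value with hederagenin (51% of all genes), 14 at an unadjusted p under 0.05 (2.16% of all genes) and 0 higher, 21 without overlap of libraries (8.11% of all genes), with a median of -0.25 beside -0.0036 over all genes.

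Against vehicle at 2 µM the response was already present with oleanolic acid in more genes. 8 of the 27 passed higher with oleanolic acid and 2 with hederagenin, ASNS and STC2, beside 0.245% and 0.0991% of all genes. ASNS rose 1.56-fold with hederagenin and 1.88-fold with oleanolic acid, and STC2 rose 1.7-fold and 2.71-fold. CHAC1 rose 2.98-fold with oleanolic acid (adjusted p 9.73e-05) and stood at 1.54-fold with hederagenin (adjusted p 0.195). A call in one compound and not in the other is no test of their difference, and the tests of that difference are the ones given above.

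**Figure D3:**
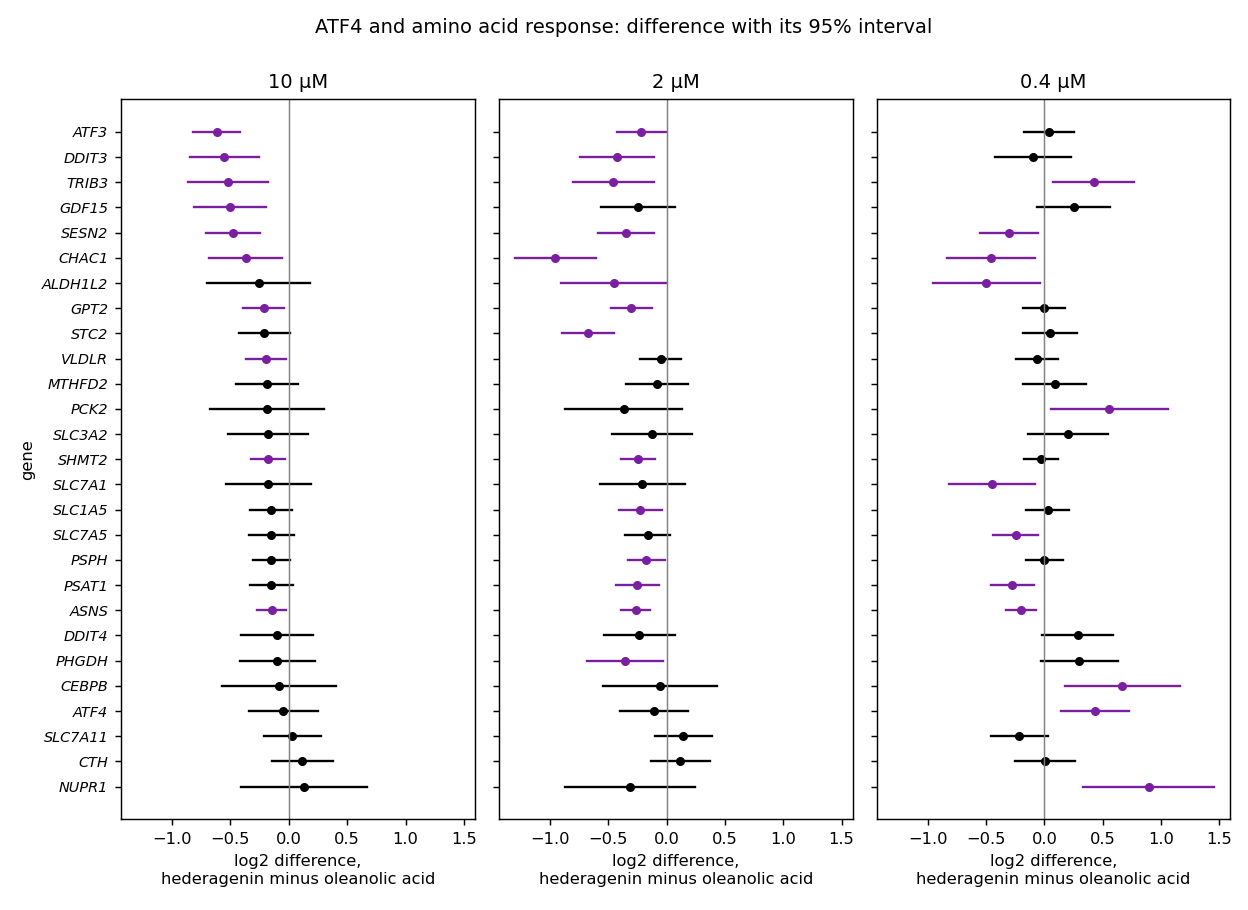
Log2 difference, hederagenin minus oleanolic acid (x axis), of the 27 tested members of the ATF4 list at each dose, with 95% intervals; purple marks intervals that leave out 0 before any adjustment for the number of genes. At 10 and 2 µM the purple intervals all lie below 0 (10 and 14 genes), and at 0.4 µM they lie on both sides (7 below and 5 above).

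At 0.4 µM the list had no common direction, with a median of 0.0018, 7 genes lower and 5 higher with hederagenin at an unadjusted p under 0.05, beside 12.7% and 20% of all genes. Those counts depended on single libraries. Without replicate 2 of hederagenin 2 genes were lower and 0 higher (median -0.038), and with the mitochondrial share as a covariate 5 and 0 (median -0.12). Without replicates 1 and 2, which leaves 1 hederagenin library, the median was -0.16. The shares of all genes just given are those of the main fit and not of these alternatives. TRIB3 measured 82.6, 96.8 and 49.6 CPM in the 3 hederagenin libraries and 56.9, 53.6 and 60.3 CPM with oleanolic acid, and ATF4 measured 326, 471 and 267 CPM and 272, 253 and 263 CPM. In both genes replicates 1 and 2, those of low mitochondrial share, gave the higher hederagenin values, and replicate 3 lay below the oleanolic acid libraries for TRIB3 and within their range for ATF4. The TRIB3 difference was 0.42 in value and turned to -0.206 without those 2 libraries. ASNS, in contrast, measured 84.9, 84.9 and 89.3 CPM against 100, 97.6 and 99.5 CPM, lower with hederagenin in all 3 libraries (-0.20 ± 0.06, adjusted p 0.148). The ordering of the compounds across doses was also tested directly. No gene passed for the difference at 10 µM minus that at 0.4 µM (0% called, 1922 genes or 11.2% at an unadjusted p under 0.05, 5 genes by DESeq2), and ATF3 gave -0.66 ± 0.14 and TRIB3 -0.94 ± 0.23 for that contrast (adjusted p 0.426 for both). Without replicate 3 of 0.4 µM hederagenin, 4312 genes passed for that contrast, and without replicate 2 of 10 µM hederagenin 1 gene did.

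The 3 genes of smallest p at 0.4 µM were ZNF326, ZNF329 and PAPPA-AS1, none of which passed (adjusted p 0.0811 for each). ZNF326, a zinc finger protein linked to splicing, measured 60.4, 68.8 and 59.8 CPM with hederagenin and 45.1, 42.9 and 42.9 CPM with oleanolic acid. ZNF329, another zinc finger gene, measured 7.67, 9.73 and 8.86 CPM against 5.57, 5.67 and 5.48 CPM. PAPPA-AS1 measured 35, 55.1 and 48 CPM against 23.9, 24.2 and 23.7 CPM. It runs antisense to PAPPA, and since the use of strand in counting is not given in the sources used here its reads cannot be told from those of that gene. In each of the 3 genes the third hederagenin library, whose mitochondrial share was 17.8%, also lay above all 3 oleanolic acid libraries. Of 23 ribosome biogenesis genes 13 were higher and 3 lower with hederagenin at 0.4 µM at an unadjusted p under 0.05, with a median of 0.31, beside 20% and 12.7% of all genes. NPM1, a nucleolar histone chaperone, measured 2300, 3030 and 1790 CPM against 1390, 1320 and 1360 CPM, and NCL, nucleolin, 2350, 2520 and 1940 CPM against 1340, 1270 and 1220 CPM, with differences of 0.81 ± 0.16 and 0.83 ± 0.16 (adjusted p 0.0811 for both). By the Benjamini-Hochberg step within the dose alone 1430 genes passed at 0.4 µM, 1129 higher and 301 lower with hederagenin. Leaving out replicate 3 of hederagenin gave 6079 genes, leaving out replicate 1 gave 8, and with the mitochondrial share as a covariate the count was 0.

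Cytosolic chaperones ran the other way. HSPH1, a large nucleotide exchange factor for HSP70, measured 193, 192 and 194 CPM with vehicle, 145, 145 and 147 CPM with 10 µM hederagenin and 114, 113 and 124 CPM with 10 µM oleanolic acid. It fell with both compounds against vehicle (adjusted p 0.000999 and 8.31e-07) and was 1.25-fold higher with hederagenin than with oleanolic acid, a log2 difference of 0.32 ± 0.06 (adjusted p 1 by edgeR and 8.98e-05 by DESeq2). CHORDC1, an HSP90 co-chaperone, measured 77.8, 74.2 and 82.7, 58.2, 59.1 and 61.2 and 45, 42.7 and 48.5 CPM in the same order, and the inducible HSP70 gene HSPA1A, whose reads may be shared with its near-identical copy HSPA1B, 289, 298 and 296, 163, 182 and 207 and 118, 113 and 153 CPM. In all 3 genes the libraries ran from vehicle through hederagenin to oleanolic acid without overlap. Against vehicle the call of CHORDC1 with hederagenin was lost in 4 alternatives and that of HSPA1A in 1. Of the 17 chaperone genes tested, 13 fell with 10 µM oleanolic acid (3.63% of all genes) and 4 with hederagenin (2.66% of all genes), and 0 rose with either. Between the compounds all 17 values were higher with hederagenin (51.3% of all genes), 9 at an unadjusted p under 0.05 (2.92% of all genes), with a median of 0.21. After subtracting the difference of paeonol and paeoniflorin at the same dose, described at the end, 0 of the 17 had such a p and the median was 0.14. That contrast adds the spread of a further pair. It also comes from a fit where the median SE of a single pair at 10 µM was 0.23, against 0.17 in the main fit. The share of all genes with such a p in that contrast is not given here. A loss of small p-values there does not show that the difference is lost. At 2 µM the median was 0.058 with 3 genes higher, and at 0.4 µM it was 0.23 with 9 higher, beside 1.35% and 20% of all genes.

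Of 14 acute phase and complement genes 4 were higher and 0 lower with hederagenin at 10 µM at an unadjusted p under 0.05, with a median of 0.17, beside 2.92% and 2.95% of all genes. The 3 of smallest p were the fibrinogen chains, clotting proteins. FGB measured 251, 253 and 245 CPM with vehicle, 201, 233 and 211 CPM with 10 µM hederagenin and 160, 145 and 137 CPM with 10 µM oleanolic acid, a difference between the compounds of 0.55 ± 0.10 (adjusted p 0.572 by edgeR and 0.000917 by DESeq2), or 1.46-fold. It fell against vehicle with oleanolic acid (-0.76 ± 0.10, adjusted p 8.46e-05) and did not pass with hederagenin (-0.22 ± 0.10, adjusted p 0.191). FGG measured 164, 171 and 160 CPM against 138, 137 and 127 CPM and FGA gave a difference of 0.36 ± 0.11. At 2 µM FGB measured 296, 280 and 294 CPM against 302, 254 and 248 CPM and the ranges overlapped. DUSP5, a nuclear phosphatase that switches off ERK, was the third gene by p at 10 µM and went the opposite way, at 61.3, 59.3 and 59.1 CPM with vehicle, 49.2, 49.3 and 51.3 CPM with hederagenin and 72.4, 75.9 and 66.8 CPM with oleanolic acid. It lay below vehicle with one compound and above it with the other, though neither value against vehicle passed by edgeR (adjusted p 0.108 and 0.104). In the alternatives the first passed in 2 and the second in 4 of 18. The difference of -0.52 ± 0.10 had an adjusted p of 0.572 by edgeR and 0.000952 by DESeq2. Of the 20 immediate early and ERK target genes 17 were lower in value with hederagenin at 10 µM, 3 at an unadjusted p under 0.05, beside 48.7% and 2.95% of all genes.

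**Figure D4:**
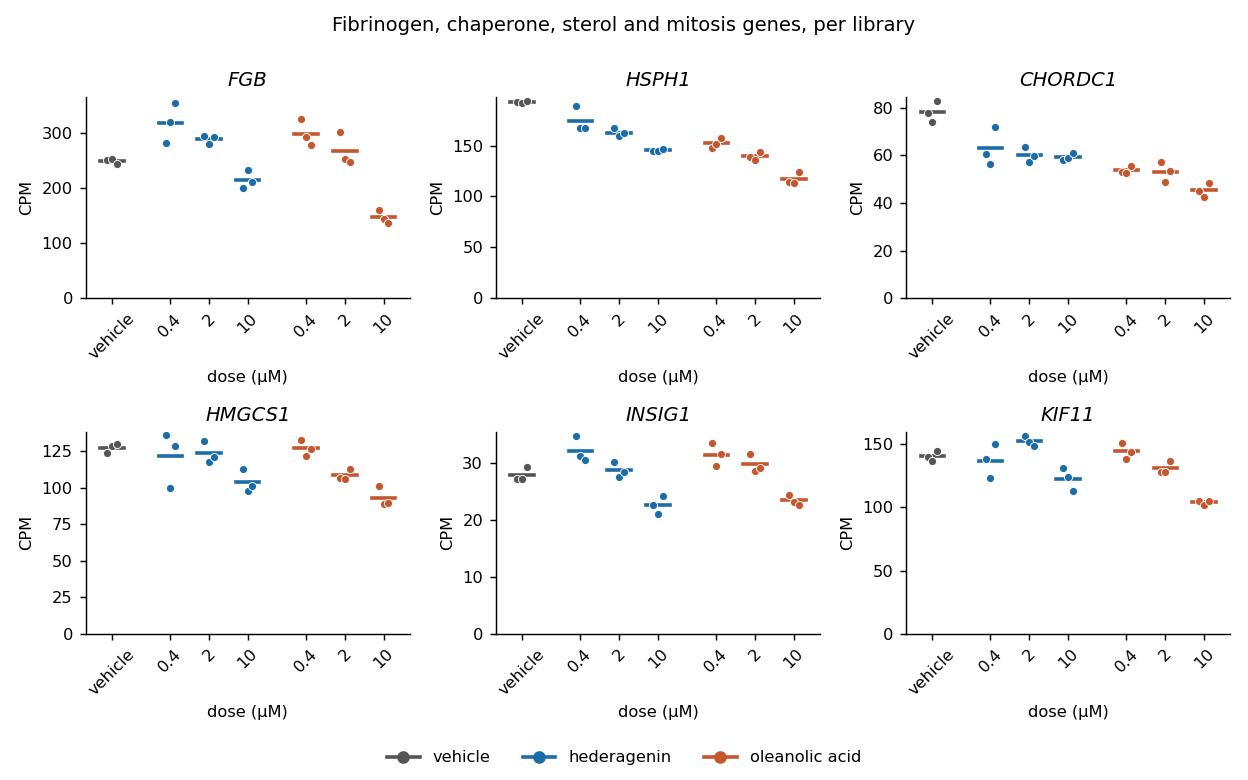
CPM (y axis, from 0) of a fibrinogen chain, 2 chaperone genes, 2 sterol genes (HMGCS1 and INSIG1) and a mitotic kinesin in each library (points) with the group mean (line), by compound and dose in µM. FGB, HSPH1, CHORDC1 and KIF11 were lowest with 10 µM oleanolic acid, with 10 µM hederagenin above it in all 3 libraries, whereas INSIG1 and HMGCS1 overlapped between the compounds at that dose.

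Of 25 genes of cholesterol synthesis and uptake, 11 fell with 10 µM hederagenin and 10 with 10 µM oleanolic acid, beside 2.66% and 3.63% of all genes, with medians of -0.30 and -0.32, and 0 passed higher. HMGCS1, which makes the substrate of HMG-CoA reductase, measured 124, 129 and 130 CPM with vehicle, 113, 98.1 and 101 CPM with hederagenin and 101, 89.2 and 89.8 CPM with oleanolic acid. The compounds overlapped, with a difference of 0.15 ± 0.10 with a 95% interval of -0.05 to 0.36. It fell against vehicle with oleanolic acid (adjusted p 0.00628), and with hederagenin the adjusted p was 0.07. INSIG1, which holds the SREBP proteins in the endoplasmic reticulum, differed by -0.05 ± 0.08 (interval -0.22 to 0.12). Between the compounds 1 of the 25 genes had an unadjusted p under 0.05 at 10 µM and none at 2 µM, beside 5.87% and 3.5% of all genes, with medians of 0.037 and 0.011. ABCA1, a cholesterol exporter and LXR target, measured 17.9, 18.1 and 17 CPM with vehicle, 35.6, 26.2 and 26.2 CPM with 10 µM hederagenin and 25.8, 19.4 and 22 CPM with 10 µM oleanolic acid, a difference of 0.39 ± 0.23 with an interval of -0.09 to 0.87. Against vehicle its adjusted p by edgeR was 0.0656 with hederagenin and 0.391 with oleanolic acid, and it passed in 7 and 1 of 18 alternatives, DESeq2 among the 7 (lowest adjusted p 0.0018 and 0.0494).

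Of 40 mitotic genes 11 fell with 10 µM hederagenin and 21 with 10 µM oleanolic acid, beside 2.66% and 3.63% of all genes, and 0 rose. Between the compounds 34 of the 40 values were higher with hederagenin, 10 at an unadjusted p under 0.05 and 0 lower, with a median of 0.11, beside 51.3% and 2.92% of all genes. KIF11, the spindle kinesin, measured 140, 137 and 145 CPM with vehicle, 131, 124 and 113 CPM with hederagenin and 105, 102 and 105 CPM with oleanolic acid, and DLGAP5, a spindle protein, 73.9, 72.3 and 73.1, 64.1, 62.5 and 60 and 54.2, 54.7 and 51.7 CPM. TOP2A, which untangles chromosomes, measured 789, 780 and 786 CPM against 662, 676 and 697 CPM, with vehicle at 803, 781 and 812 CPM, a difference of 0.21 ± 0.06 (adjusted p 1 by edgeR and 0.0015 by DESeq2). Of 40 replication genes 35 were higher in value with hederagenin, 7 at an unadjusted p under 0.05, with a median of 0.14. After subtracting the difference of paeonol and paeoniflorin, in a contrast of larger standard error, 1 mitotic and 2 replication genes had such a p. The share of all genes in that contrast is not given here. In bulk libraries a smaller share of cycling cells and less transcript per cell cannot be told apart.

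HERPUD1, an endoplasmic reticulum stress gene, measured 45.4, 40.7 and 39.7 CPM with 10 µM hederagenin and 61.4, 54.2 and 46 CPM with oleanolic acid (-0.36 ± 0.09), yet CALR and DNAJB11, chaperones of the same compartment, differed the other way (0.34 ± 0.11 and 0.26 ± 0.08). The 18 unfolded protein response genes had 2 lower and 2 higher at an unadjusted p under 0.05, beside 2.95% and 2.92% of all genes, and a median of 0.059. Of 16 NF-kB target genes 15 were lower in value with hederagenin at 10 µM, 3 at an unadjusted p under 0.05, with a median of -0.28, beside 48.7% and 2.95% of all genes. CXCL5, a neutrophil chemokine, measured 52.4, 50 and 51.6 CPM with vehicle, 66.8, 61.4 and 64.5 CPM with hederagenin and 75.2, 75.5 and 83.1 CPM with oleanolic acid and rose with both (adjusted p 0.0291 and 0.000197), though the call with hederagenin was lost in 8 alternatives. Of 25 p53 targets 19 were lower in value, 3 at that p, beside the same shares, with CDKN1A, the cell cycle inhibitor p21, at 86.9, 88.5 and 78.9 against 112, 114 and 90.2 CPM. Of 27 NRF2 targets 1 was higher and 0 lower at that p, beside 2.92% and 2.95% of all genes, with a median of 0.012. The NRF2 gene NQO1, a quinone reductase, measured 1520, 1530 and 1520 CPM with vehicle, 1510, 1520 and 1650 CPM with hederagenin and 1450, 1600 and 1490 CPM with oleanolic acid, and HMOX1, heme oxygenase, differed by -0.06 ± 0.10 (interval -0.26 to 0.15). At 10 µM HMOX1 rose against vehicle with oleanolic acid (0.34 ± 0.10, adjusted p 0.039, a call lost in 8 alternatives), stood at 0.28 ± 0.10 with hederagenin (adjusted p 0.0896), and NQO1 passed with neither. The bile acid receptor gene GPBAR1 did not pass the filter on low counts. The 13 mitochondrially encoded genes were lower in value with hederagenin at each dose (49.4% of all genes at 0.4 µM), with medians of -0.56, -0.42 and -0.94 at 10, 2 and 0.4 µM, none passed, and the libraries of the compounds overlapped in each gene. Of 45 cytosolic ribosomal protein genes 35 were lower in value with hederagenin at 10 µM, 6 at an unadjusted p under 0.05, with a median of -0.16, beside 48.7% and 2.95% of all genes. At 0.4 µM 18 were higher and 5 lower (20% and 12.7% of all genes). Without replicate 2 of hederagenin 4 were higher and 16 lower at that dose. The share of all genes in that fit is not given here, so these counts show only a dependence on 1 library. At 10 µM the lists of hypoxia, YAP, TGF-beta, apoptosis, proteasome, autophagy, interferon, iron, fatty acid and respiratory chain genes each had at most 2 members on either side at that p, with medians between -0.059 and 0.079. Among all genes 2.92% were higher and 2.95% lower at that p.

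**Figure D5:**
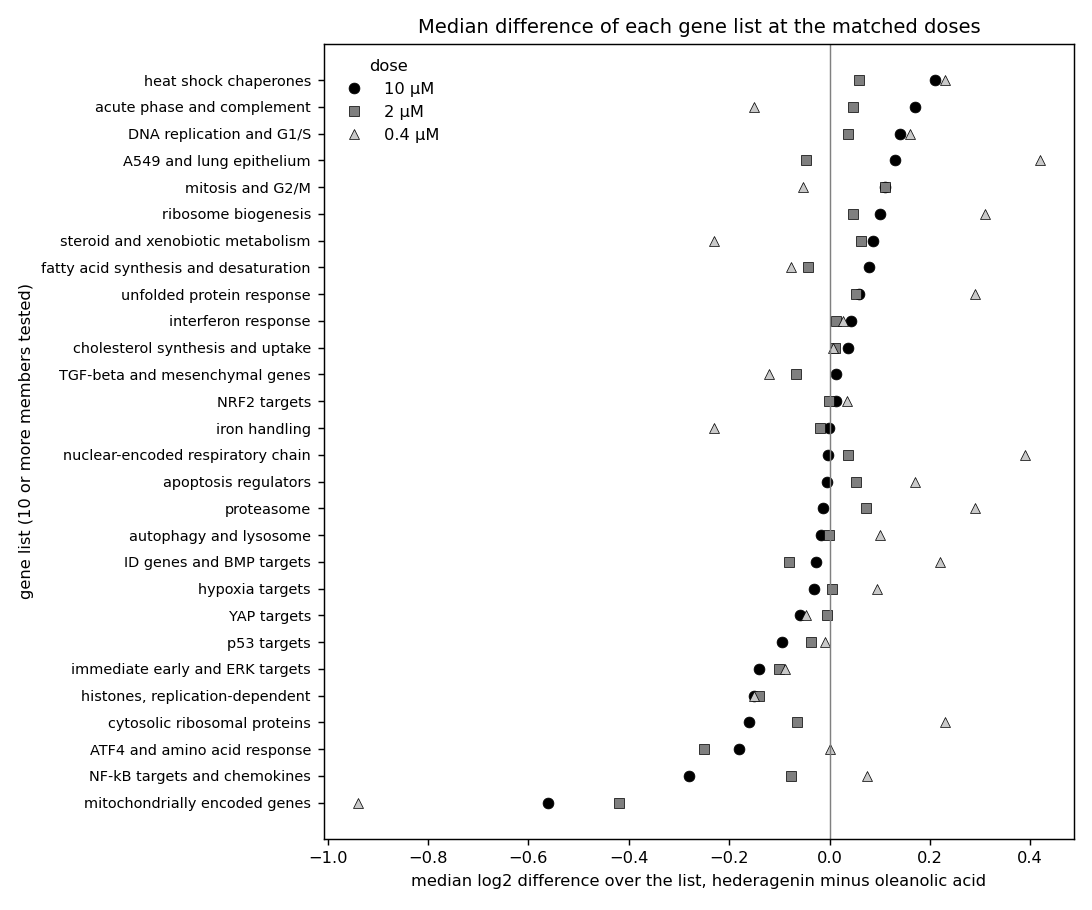
Median log2 difference, hederagenin minus oleanolic acid (x axis), of each gene list with at least 10 tested members at 10, 2 and 0.4 µM. Heat shock chaperones (0.21) lie at one end at 10 µM and the NF-kB, ATF4 and mitochondrially encoded lists (-0.28, -0.18 and -0.56) at the other, while cholesterol synthesis lies near 0 at every dose.

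For most expressed genes the data bound the difference between the compounds within 2-fold, which is wider than the difference given above for ATF3 at 10 µM. Among the 9603 genes with a mean of at least 10 CPM, the 95% interval of the difference lay within a 2-fold change in either direction for 99% at 10 µM, 99.2% at 2 µM and 89.5% at 0.4 µM. The median distance from the estimate to either bound was 0.26 on the log2 scale, or 1.19-fold, at each dose. It hardly varies because each gene's spread is pooled over the 7 groups. With only the groups compared in a fit, the genes called for 0.4 µM hederagenin against vehicle went from 4529 to 0. In such fits the genes called for hederagenin against vehicle went from 1095 to 2901 at 10 µM and from 40 to 2359 at 2 µM. Between the compounds they called 0 genes at each dose. The intervals at 0.4 µM may therefore be too narrow, and those at 10 and 2 µM too wide. A p that misses the threshold does not show that the compounds act alike.

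Hederagenin and oleanolic acid libraries carry codes that begin with 8 and 9, as do those of paeonol and paeoniflorin, 2 unrelated ingredients at the same doses. Paeonol against paeoniflorin gave 0 called genes of 17730 at each dose (0%), with 375 (2.12%), 169 (0.953%) and 1285 (7.25%) genes at an unadjusted p under 0.05 at 10, 2 and 0.4 µM, and 0 called after leaving out any 1 library of the groups compared. Their log2 differences at 10 µM, set beside those of the triterpenes, were 0.22 ± 0.14 for ATF3, -0.31 ± 0.24 for DDIT3, 0.38 ± 0.29 for TRIB3, -0.24 ± 0.24 for ASNS and -0.09 ± 0.09 for FGB. For ASNS this was further from 0 than the difference of the triterpenes at 10 µM, which turned to 0.0887 once it was subtracted. At 2 µM they were 0.02 ± 0.20 for STC2, -0.01 ± 0.21 for CHAC1 and -0.08 ± 0.14 for CBS, where the triterpenes differed by -0.67 ± 0.11, -0.95 ± 0.17 and -0.73 ± 0.13. What the code series stands for is not given in the sources used here.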

How the data were processed

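Directional mRNA libraries of A549 cells were analysed from 1 table of 60675 genes. The tools named in the submitters' processing notes are RSEM 1.3.3, STAR, Trim Galore and FastQC, and the build is GRCh38. The deposited values are estimated counts (expected counts), of which 89.2% are whole numbers; the authors' use of strand in counting is not given in the sources used here. Expected counts were rounded. The 18 compound libraries and the 3 vehicle libraries of the same batch, 7 groups of 3, entered 1 edgeR 4.0.16 quasi-likelihood fit (R 4.3.3, limma 3.58.1) with TMM scaling, the default expression filter (17156 genes) and no covariate. P-values were adjusted by Benjamini-Hochberg over all genes and, for the compounds against each other, multiplied by 3 for the 3 dose pairs; the threshold was 0.05. Paeonol and paeoniflorin entered a fit of 39 libraries (17730 genes). DESeq2 1.42.0, other scalings, filters, sample sets, a replicate block and leaving out libraries were alternatives. The code was tested on simulated data. Promoter windows and figures were made with Python 3.11.15.

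The members, gene lists and tests were chosen with earlier results of these data known, so none of them is independent support. Genes were named by 1 rule: since no gene passed between the compounds, the 3 of smallest p at each dose, up to 3 of smallest p at 10 µM from each list described, and HMGCS1, INSIG1, ABCA1, HMOX1, NQO1, DDIT3, ATF3, TRIB3 and GPBAR1. ATF4, ASNS, PSAT1, PHGDH, NUPR1, CTH, SLC7A11 and the genes called by DESeq2 or with the covariate were chosen after their values were seen. No pair of replicates held identical values. Some genes that the rule names are not reported here.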

Additional observations from a re-analysis of the deposited data

How the results depend on the processing

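The 0 calls between the compounds at 10 and 2 µM by edgeR (1007 and 601 genes at an unadjusted p under 0.05) stayed at 0 with relative log expression factors, without mitochondrially encoded genes and with the adjustment within the dose alone. They also stayed at 0 after subtracting the difference of paeonol and paeoniflorin, in a contrast of larger standard error. The same held without any 1 library of the groups compared (0 to 0). Leaving out a single vehicle library or a single library of another dose was not run for these comparisons. The cause of the changes below was not tested.

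DESeq2 called 15, 4 and 1261 genes between the compounds at 10, 2 and 0.4 µM and 5 for the change from 0.4 to 10 µM. Against vehicle it called 1651 and 198 for hederagenin at 10 and 2 µM, and 237 and 111 for oleanolic acid at 2 and 0.4 µM. Adjusting within the dose alone gave 1430 at 0.4 µM. Without the filter 929 genes passed at 0.4 µM, 1 for the change with dose, and 867 and 48 for oleanolic acid at 10 and 2 µM against vehicle. The fit of all 75 libraries gave 2 genes between the compounds at 10 µM, FGB and DUSP5, and against vehicle 444, 10 and 559 for hederagenin at 10, 2 and 0.4 µM and 815 for oleanolic acid at 10 µM. Without 4 libraries set aside for COL1A2, 1 gene (FGB) passed between the compounds at 10 µM. Against vehicle 543 and 1321 passed for hederagenin at 10 and 0.4 µM and 50 for oleanolic acid at 0.4 µM. Those 4 were replicate 2 of catechin at 10 and 2 µM and replicate 1 of gallic acid at 2 and 0.4 µM. COL1A2 counts, up to 0.847 CPM, were also found in libraries of the main fit. With only the groups compared in a fit, hederagenin gave 2901, 2359 and 0 against vehicle at 10, 2 and 0.4 µM and oleanolic acid 3737, 1744 and 2027.

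The next alternatives were chosen after seeing the data. Those without replicates 1 and 2 of 0.4 µM hederagenin leave 1 library in that group, and their counts at 0.4 µM and for the change with dose rest on it. With the mitochondrial share as a covariate, 2 and 4 genes passed between the compounds at 10 and 2 µM, and against vehicle 1751, 279 and 1092 for hederagenin at 10, 2 and 0.4 µM and 2666, 379 and 170 for oleanolic acid. Without replicates 1 and 2 of 0.4 µM hederagenin, 10 passed between the compounds at 10 µM, among them ATF3, HSPH1, FGB and DUSP5, and against vehicle 4063, 470 and 586 for hederagenin and 4087, 573 and 304 for oleanolic acid. With both changes, 128, 5 and 87 passed between the compounds at 10, 2 and 0.4 µM, 1 for the change with dose, and 2740, 1103 and 2248 for hederagenin and 4674, 1732 and 1087 for oleanolic acid against vehicle. Without replicate 3 of both compounds at 10 µM, 377 and 760 passed against vehicle.

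Leaving out 1 library of the groups compared at a time gave 0 to 6079 genes between the compounds at 0.4 µM and 0 to 4312 for the change with dose. Against vehicle it gave 320 to 1175, 8 to 13 and 1731 to 8777 for hederagenin at 10, 2 and 0.4 µM, and 658 to 864, 19 to 47 and 9 to 15 for oleanolic acid. Paeonol against paeoniflorin stayed at 0 in each.

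The main fit did not pair samples by replicate number. The correlation of same-numbered deviations was 0.25, 0.098 and 0.42 at 10 µM, 0.078, 0.21 and -0.025 at 2 µM and -0.084, -0.12 and -0.28 at 0.4 µM. With unlike numbers it ran from -0.34 to 0.15 at 10 µM, from -0.18 to 0.1 at 2 µM and from -0.14 to 0.22 at 0.4 µM. At 10 µM replicates 1 and 3 thus correlated most with their own number, and a pairing at that dose was not settled. With the number as a replicate block the calls between the compounds stayed at 0 at each dose, and 22 genes passed for 2 µM hederagenin against vehicle. In fits of the 6 libraries compared with the block, added after seeing the data, 2 genes without a symbol passed at 10 µM.

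Over the alternatives run, the genes of the ATF4 list lower with hederagenin at an unadjusted p under 0.05 numbered 6 to 22 at 10 µM (median -0.29 to -0.14) and 4 to 22 at 2 µM (median -0.27 to -0.20). Subtracting the difference of paeonol and paeoniflorin left 8 ATF4 list genes lower at 10 µM, and 0 chaperones, 1 mitotic and 2 replication genes higher, from 9, 10 and 7. The larger standard error of that contrast can lower such counts by itself. Shares of all genes at that p in the alternatives are not given here. These counts can therefore not be set beside the shares of the main fit. Values of the genes followed changed sign in 158 comparisons of an alternative with the reported value, all for differences that had not passed, such as ASNS at 10 µM (-0.18 to 0.0887 over the alternatives), HMOX1 at 10 µM (-0.138 to 0.166) and TRIB3 at 0.4 µM (-0.206 to 0.652).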
